A study of Mus musculus with 2 samples.

Results

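The miR-30 family of the mouse consists of 6 genes, Mir30a, Mir30b, Mir30c-1, Mir30c-2, Mir30d and Mir30e, and all 6 were among the 1973 miRNA genes listed in both count tables. They were picked out of the tables by their GENCODE symbol. Small RNA below 30 nt was sequenced from total RNA of stomachs of healthy mouse embryos of strain B6NCrl at embryonic day 15.5, with both sexes mixed. Replicate 1 was 1 pool of 78 embryos and replicate 2 a separate pool of 62 embryos. The 2 libraries form a single group with no second condition. The comparisons are therefore between family members, between their genomic clusters, and between the pools.

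MicroRNAs are short RNAs cut from hairpin precursors. They bind mRNAs mainly through the seed, the stretch after their first base, and lower the stability and translation of the mRNA. The members of the miR-30 family share their seed and so a large set of predicted targets. Known targets include Snai1, a factor that drives the change from epithelial to mesenchymal cells, Ccn2, a matrix-regulating growth factor, and Becn1, a component of the autophagy machinery. The gut wall of the embryo holds epithelium, mesenchyme, smooth muscle, vessels and nerves. In whole tissue, fewer cells of a type and less RNA per cell cannot be told apart.

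The mature sequences show how alike the family members are, and which reads can be told apart. Mature sequences of 4 of the 6 members, Mir30a, Mir30c-1, Mir30c-2 and Mir30e, and of Mir384 were taken from RefSeq (build GRCm38.p6). They are written from the 5′ to the 3′ end, with the seed (bases 2 to 8) in capitals. The 5p arm is the 5′ side of the hairpin and the 3p arm the 3′ side. The 5p arms, with their common seed, are the following.
Mir30a 5p: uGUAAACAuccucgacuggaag
Mir30e 5p: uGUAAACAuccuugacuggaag
Mir30c-1 and Mir30c-2 5p: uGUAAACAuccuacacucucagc
Mir384 5p: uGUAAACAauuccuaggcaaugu

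The seed GUAAACA was found in 5 of the 1738 mature entries of the RefSeq table, or 0.288%. These were the 5p arms of the 4 family members above and that of Mir384, an X-linked gene outside the family by name. The RefSeq table held no mature entry for Mir30b or Mir30d, so their seeds could not be looked up. The 5p arms of Mir30a and Mir30e had the same 22 bases except for C13U (the base of Mir30a, the position from 1 at the 5′ end, the base of Mir30e). Mir30c-1 and Mir30c-2 had an identical 5p arm of 23 bases. It shared its first 12 bases with Mir30a and Mir30e, while Mir384 shared only its first 8 with Mir30a.

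The 3p arms fell into 2 groups by their own seeds and are the only mature arms that tell Mir30c-1 from Mir30c-2.
Mir30a 3p: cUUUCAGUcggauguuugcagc
Mir30e 3p: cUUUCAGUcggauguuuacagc
Mir30c-1 3p: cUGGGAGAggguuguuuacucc
Mir30c-2 3p: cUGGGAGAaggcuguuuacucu

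The 3p arms of Mir30a and Mir30e differed by G18A alone. Those of Mir30c-1 and Mir30c-2 differed by G9A, U12C and C22U. The deposited counts are per gene, so they add the assigned reads of both arms and do not show which arm these came from. Reads matching several places were deposited apart and are in no gene count. A read lying wholly in the 5p arm shared by Mir30c-1 and Mir30c-2 matches both genes, so their counts leave it out.

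Replicate 1 held 5988677 sense counts over all listed genes and replicate 2 held 6675498. Levels are given as CPM, the sense counts of a gene scaled to a common library total. A count of 0 would have allowed up to 0.501 and 0.449 CPM, and such limits and all intervals below cover counting error only, since reads without molecular identifiers are not independent molecules. Markers of the gut wall were present in both pools. Smooth muscle genes (Mir143 and Mir145a) held 18.1% ± 0.352 of counts (SD, n = 2), the 5 epithelial miR-200 genes 4.33% ± 0.0222 and the endothelial Mir126a 2.56% ± 0.0830. No marker on the lists was at 0.

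Mir30e, Mir30a and Mir30d carried nearly all counts of the family. Mir30e, which lies with Mir30c-1 inside an intron of Nfyc, the gene of a subunit of the CCAAT-binding factor NF-Y, had 90634 sense counts in replicate 1 and 84872 in replicate 2. Its level was 13924 ± 1711 CPM (SD, n = 2), and it ranked 14th and 19th among all listed genes. Mir30a had 32504 and 33164 counts, 5198 ± 325 CPM, and ranked 37th and 38th. Mir30d had 30420 and 33790 counts, 5071 ± 12.6 CPM, and ranked 40th and 37th. By these gene counts Mir30e was the highest member in both libraries, with no overlap with Mir30a or Mir30d.

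The other members had far lower gene counts in both libraries, and those of Mir30c-1 and Mir30c-2 leave out reads that match both genes. Mir30b had 1174 counts in replicate 1 and 671 in replicate 2, 148 ± 67.5 CPM. Mir30c-1 had 449 and 406 counts, 67.9 ± 10.01 CPM (SD, n = 2), and Mir30c-2 had 130 and 146 counts, 21.8 ± 0.116 CPM. Each was nonetheless well above the limit that a count of 0 allows, and the ranges of the 3 genes over the libraries did not overlap.

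**Figure D1:**
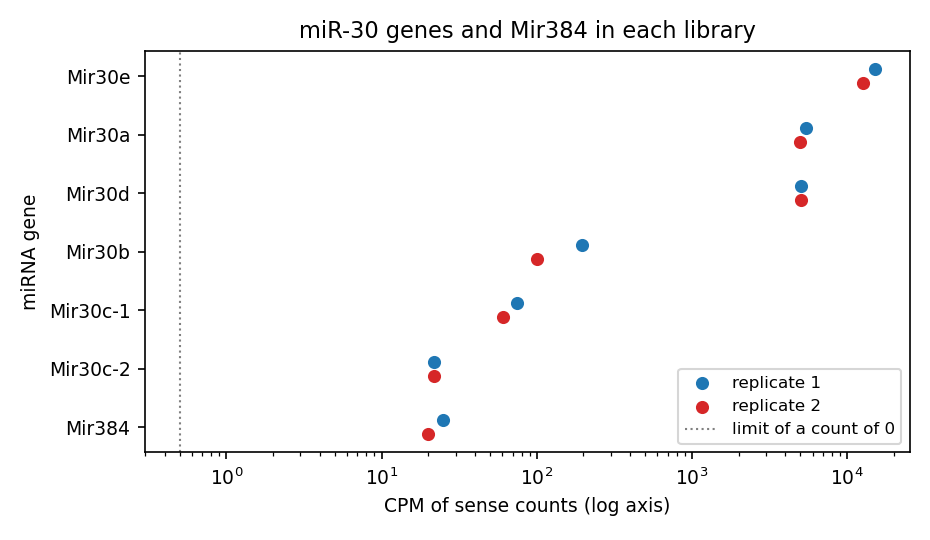
Level of each miR-30 gene and of the seed relative Mir384 in the 2 libraries, as CPM of sense counts on a log axis; each point is 1 library and the dotted line is the higher of the limits that a count of 0 allows (0.501 CPM). Mir30e, Mir30a and Mir30d stand between 4968 and 15134 CPM and the remaining genes between 19.9 and 196 CPM.

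By gene counts, the order of the mean levels was Mir30e, Mir30a, Mir30d, Mir30b, Mir30c-1, Mir30c-2. Mir30a and Mir30d were not separated: Mir30a exceeded Mir30d by 0.10 on the log2(CPM + 1) scale in replicate 1 and lay 0.03 below it in replicate 2, a mean difference of 0.03 ± 0.09 (SD, n = 2). All other neighbours kept their order in both libraries. Mir30e exceeded Mir30a by 1.42 ± 0.09 and Mir30b exceeded Mir30c-1 by 1.05 ± 0.47 on that scale, the latter the less even of the 2. These levels were not divided by length. Divided by the length of the hairpin, which was 71 bases for Mir30a and 96 for Mir30b at the extremes, the levels kept the same order, from 151 CPM per base for Mir30e, 73.2 for Mir30a and 61.8 for Mir30d to 0.259 for Mir30c-2. The lengths are too alike to reorder any members but Mir30a and Mir30d. The gap per base between these 2 comes mostly from their lengths, 71 and 82 bases.

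Together the 6 genes held 2.59% (2.58 to 2.61, 95% Wilson interval) and 2.29% (2.28 to 2.30) of all sense counts in replicates 1 and 2, or 2.44% ± 0.213 (SD, n = 2). Mir30e alone made up 58.4% of the family in replicate 1 and 55.5% in replicate 2. The share of Mir30d went from 19.6% to 22.1% and that of Mir30a from 20.9% to 21.7%. The intervals of each of these shares did not overlap between the libraries, so the make-up of the family differed by more than these intervals cover. With 1 library per pool, a difference of the pools and one of library preparation cannot be told apart. Mir30b made up 0.756% and 0.438%, and each 30c gene less. Mir384, which carries the same seed, had 150 and 133 counts, 22.5 CPM on average. It lay beside Mir30c-2 and raised the share of the seed group only to 2.45%.

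The family is spread over 3 genomic clusters of 2 genes each, given here in GENCODE M21 coordinates of the mm10 assembly. Mir30e (chr4:120772606-120772697) and Mir30c-1 (chr4:120769534-120769622) lie 2983 bases apart on the minus strand, in intronic sequence of all 6 Nfyc transcripts that span them. Mir30d (chr15:68341208-68341289) and Mir30b (chr15:68337415-68337510) lie 3697 bases apart on the minus strand. Mir30d is contained in an exon of the lincRNA Gm20732, and Mir30b overlaps in part the processed transcript Gm26621. Mir30a (chr1:23272269-23272339) and Mir30c-2 (chr1:23291701-23291784) lie 19361 bases apart on the plus strand. Mir30c-2 lies in an exon of the lincRNA Gm27028, while no other annotated transcript overlaps Mir30a.

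In the gene counts of every cluster 1 gene dominated, and it was the first in the direction of transcription. The counts of Mir30c-1 and Mir30c-2 leave out reads that match both genes. For their clusters this order is therefore uncertain as one of mature levels. The cluster of Mir30e and Mir30c-1 held 57.2% ± 2.07 of the family's counts (SD, n = 2), that of Mir30d and Mir30b 21.4% ± 1.54, and that of Mir30a and Mir30c-2 21.4% ± 0.532. The last 2 clusters were thus not separated beyond the spread of the pools. With the 30c genes left out the shares were 57.1%, 21.5% and 21.4%.

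**Figure D2:**
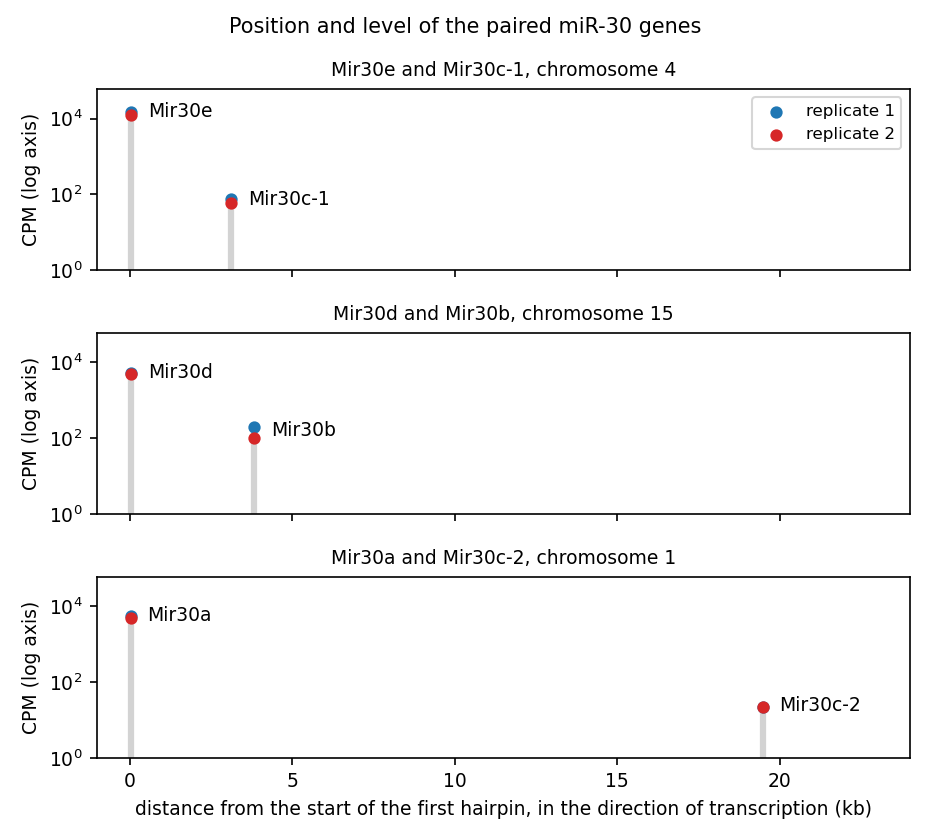
Level of the 2 genes of each cluster (CPM, log axis, 1 point per library, grey stem to the mean) against their distance in kb from the start of the first hairpin in the direction of transcription. In each cluster the first gene is the higher one in both libraries, and Mir30b is the gene whose 2 points lie farthest apart.

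Mir30e exceeded Mir30c-1 by 7.64 on the log2(CPM + 1) scale in replicate 1 and 7.68 in replicate 2, a mean of 7.66 ± 0.03 (SD, n = 2). As a ratio of counts this was 202-fold and 209-fold. Mir30a exceeded Mir30c-2 by 7.90 and 7.76, a mean of 7.83 ± 0.10, with ratios of 250-fold and 227-fold. The exact 95% intervals, taken on the log2 ratio of counts without the added CPM, overlapped between the libraries in both clusters. They were 7.52 to 7.79 and 7.57 to 7.85 for the first, 7.72 to 8.23 and 7.59 to 8.07 for the second. The counting intervals therefore did not separate the pools in these clusters.

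The cluster of Mir30d and Mir30b differed between the libraries of the pools. Mir30d exceeded Mir30b by 4.69 in replicate 1 (exact 95% interval 4.61 to 4.78) and by 5.64 in replicate 2 (5.54 to 5.77), a mean of 5.16 ± 0.67 (SD, n = 2). The ratio of counts went from 25.9-fold to 50.4-fold. Mir30d stood at 5080 and 5062 CPM, so the widening came with the level of Mir30b, which was 196 CPM in replicate 1 and 101 CPM in replicate 2.

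Neighbouring miRNA genes elsewhere in the tables were also uneven. Over 114 pairs of adjacent listed genes on 1 strand, at most 25 kb apart and with at least 10 counts in both libraries, the mean difference in level had on the log2(CPM + 1) scale a median size of 3.07 and a maximum of 12.35. Pairs within a larger cluster share genes and are not independent. The difference within the pair of Mir30a and Mir30c-2 was exceeded by 4 of the 114 pairs, that of Mir30e and Mir30c-1 by 6 and that of Mir30d and Mir30b by 29. The first gene in the direction of transcription was the higher one in 60 of the 114 pairs, or 52.6%.

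Between the pools, the difference within a pair changed by a median of 0.27 on the log2 scale over the 114 pairs. The change of 0.95 for Mir30d and Mir30b was exceeded in 7 pairs. The changes of 0.14 for Mir30a and Mir30c-2 and of 0.05 for Mir30e and Mir30c-1 were exceeded in 80 and 106 pairs. This set of pairs and the order along the transcript were taken up after the values of the members were seen, so the place of the miR-30 pairs among them is a description with no test.

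**Figure D3:**
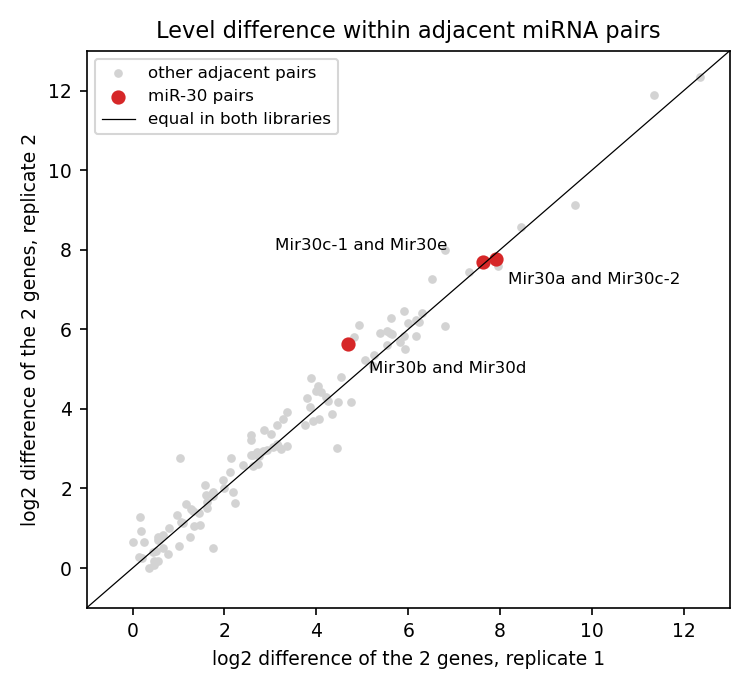
Difference in level of the 2 genes of each adjacent pair in replicate 1 (x axis) and replicate 2 (y axis), both log2(CPM + 1) and signed so that the mean is positive; each point is 1 of the 114 pairs, the miR-30 pairs are in red and the line marks equality. The pairs of Mir30e and Mir30a lie on the line near 7.66 and 7.83, while the pair of Mir30b and Mir30d lies above it at 4.69 and 5.64.

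The counts of Mir30c-1 and Mir30c-2 need to be read with their sequences. Below are the RefSeq hairpins of both genes, with the mature arms in capitals, to show how far the shared stretch runs.
Mir30c-1 hairpin: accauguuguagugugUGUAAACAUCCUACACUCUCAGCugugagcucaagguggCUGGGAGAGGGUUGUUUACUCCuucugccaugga
Mir30c-2 hairpin: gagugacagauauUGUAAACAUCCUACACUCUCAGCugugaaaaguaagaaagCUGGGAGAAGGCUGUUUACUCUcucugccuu

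The 5p arm and the bases after it are the same in both hairpins over 28 bases, longer than the 23 bases of the arm itself. Reads that matched several places were deposited as a line of their own, 25.5% of reads in replicate 1 and 27.0% in replicate 2, and are not in the gene counts. These lines do not say which genes the reads match. They were 19.0 and 22.3 times as many as the sense counts of the whole family. The levels of Mir30c-1 and Mir30c-2 are therefore uncertain as levels of miR-30c. So are the 202-fold to 250-fold differences within their clusters, their rank in the family and their place among the adjacent pairs. How many miR-30c reads were set aside was not tested. Mir30c-1 exceeded Mir30c-2 by 1.74 and 1.43 in the 2 libraries, a mean of 1.59 ± 0.22 on the log2(CPM + 1) scale (SD, n = 2).

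Mir30a and Mir30e were less alike. The longest run of bases common to their hairpins was 18, so a read that covered a whole arm held the differing base. Whether such reads were assigned by that base depends on the mismatches the aligner allowed, which no source used here gives. No member had a count on the opposite strand in either library. This includes Mir30e, over which GENCODE M21 places Mir30f on the other strand. No listed gene matched the symbol Mir30f, so it has no count here.

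Other families with copies of the same mature sequence were measured in the same way. Mir29b-1 and Mir29b-2, whose hairpins have 25 bases in common, had 3 and 3 counts and 5 and 1 counts, against 646 and 527 for Mir29a. Mir26a-1 and Mir26a-2, with 25 bases in common, had 71 and 62 counts and 303 and 262 counts, against 165504 and 246957 for Mir26b. Mir181a-1 and Mir181a-2 have 28 bases in common, as do the 30c genes, and had 5550 and 6467 counts and 249 and 624 counts. Mir181b-1 and Mir181b-2, with 26 bases in common, had 113 and 98 counts and 5530 and 5082 counts. Both copies were thus low in the miR-29 and miR-26 families, as in miR-30c, while 1 copy of each miR-181 pair was high. Over all genes with sequences and at least 10 summed counts, 49 had a mature arm found whole in another hairpin of the RefSeq table. Their median was 45.3 CPM (quartiles 10.7 and 162), beside 49.6 CPM (quartiles 2.81 and 677) for the 344 others. The limit of 10 counts left out low copies such as Mir29b-1 and Mir29b-2. Copies absent from the RefSeq table could not be found, so the 344 can include genes with a shared arm. The 2 medians therefore do not show what sharing an arm does to the counts. The whole miR-26 family held 3.24% ± 0.661 of counts, the miR-181 family 0.930% ± 0.0215 and the miR-29 family 0.0143% ± 0.00324 (SD, n = 2), beside 2.44% for miR-30. These shares leave out reads matching several places, which need not be an equal part of each family.

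Between the pools, no member passed the 2-fold limit. Genes with 10 or more counts over both libraries entered a two-sided exact binomial test with Benjamini-Hochberg adjustment over all tested genes. The call required a log2 ratio of 1 or more in size besides an adjusted p under 0.05. By this rule 27 of 466 genes, or 5.79%, were called, and 0 of the 6 members. With no fold limit 33.3% of tested genes passed as lower in replicate 2 and 13.1% as higher. Of the members 4 passed as lower (Mir30e, Mir30a, Mir30b and Mir30c-1) and 0 as higher, and the same 4 had an unadjusted p under 0.05, as did 51.1% of tested genes. The test sets these 2 libraries against counting error and says nothing about a condition. edgeR's exact test, which takes the difference between the pools as spread, called 0 members and 1.29% of tested genes. By that test 1 member, Mir30b, had an unadjusted p under 0.05, beside 7.08% of tested genes.

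The split of the members into lower and higher depended on the scaling. With edgeR's TMM and no fold limit, 2 members passed as lower and 1 as higher, beside 21.9% and 22.5% of tested genes. With DESeq2 size factors 2 passed as lower and 2 as higher, beside 21% and 25.5%. Both size factors came out at 1, so that setting compared the counts with no scaling to the library totals. Mir30e and Mir30b passed as lower under all 3 scalings. Mir30c-1 passed under library totals alone, with adjusted p values of 0.148 and 0.248 under TMM and DESeq2 size factors by the exact binomial test. Mir30a lost its call under TMM, where the exact binomial test gave an adjusted p of 0.972, and passed as higher under DESeq2 size factors, at 0.0238. Mir30d, which did not pass under library totals, passed as higher under both, at adjusted p values of 1.34e-26 and 2.12e-39 by the exact binomial test.

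Mir30b had the largest ratio of the family. It was lower in replicate 2 by 0.96 on the log2 scale, with a ratio of -0.96 (95% exact interval -1.10 to -0.83) and an adjusted p of 3.58e-44 by the exact binomial test, or 0.401 by edgeR's exact test. It missed the 2-fold limit narrowly. Of the 466 tested genes 25, Mir30b among them, had a ratio this low or lower, or 5.36%. Among the 113 genes with 500 to 5000 summed counts, a window set after its counts were seen, there were 10, or 8.85%. Mir30d, its cluster neighbour, had a ratio of -0.01 (-0.03 to 0.02) and an adjusted p of 0.784 by the exact binomial test, but 0.12 with TMM and 0.15 with DESeq2 size factors.

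The remaining ratios were small. Mir30c-1 stood at -0.30 (-0.50 to -0.10), Mir30e at -0.25 (-0.26 to -0.24), Mir30a at -0.13 (-0.15 to -0.11; 0.0011 with TMM and 0.029 with DESeq2 size factors) and Mir30c-2 at 0.01 (-0.34 to 0.36). The intervals widen with falling counts, and that of Mir30c-2 is the widest. The median of the 6 members was -0.19, with 5 below 0, beside a median of -0.11 over all tested genes, of which 63.3% were below 0. TMM raised the ratios by 0.13 and DESeq2 size factors raised them by 0.15. With either one 3 of the 6 members were below 0, and Mir30b stood at -0.83 and -0.80.

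**Figure D4:**
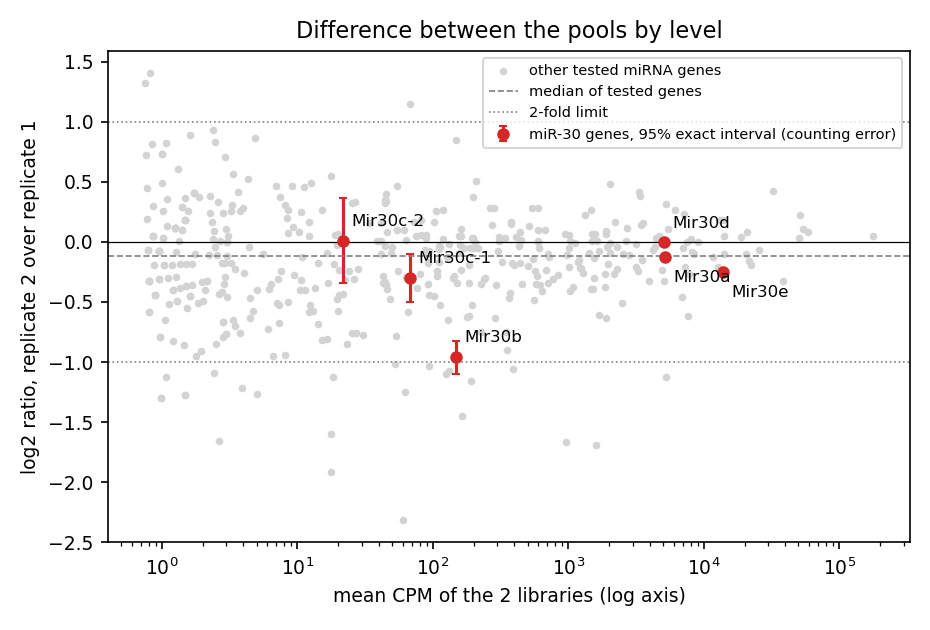
log2 ratio of replicate 2 over replicate 1 (1 CPM added) against mean CPM on a log axis for the 466 tested genes; miR-30 genes are in red with 95% exact intervals of counting error, the dashed line is the median of tested genes (-0.11) and the dotted lines mark the 2-fold limit. Mir30b lies just inside the lower limit at -0.96, and the other members lie between -0.30 and 0.01.

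Markers of other cell types also differed between the pools. The red cell genes Mir451a, Mir144 and Mir486 were lower in replicate 2 in 3 of 3 cases, beside 63.3% of tested genes. Mir144 and Mir451a lie 99 bases apart and are not independent. The ratios of the 3 genes were -1.06, -1.10 and -1.13, and their summed share went from 0.0727% to 0.0345% of counts. The liver miRNA Mir122 stood at -1.69 (0.244% and 0.0757%). The stratified epithelium genes Mir203 and Mir205 stood at -0.62 and -0.46 (1.72% and 1.18% together) and the endocrine Mir375 at 0.85 (1.29% and 2.32%). Their part in the lower count of Mir30b was not tested. The summed shares were 4.35% and 4.32% for the epithelial miR-200 genes, 17.8% and 18.3% for smooth muscle, and 0.836% and 0.783% for the mesenchymal Mir214 and Mir199b. These sums follow their most abundant genes, and Mir143 held 98.4% and 98.9% of the smooth muscle counts. By gene, Mir143 stood at 0.05 and Mir145a at -0.51, and Mir214 at -0.05 and Mir199b at -0.41. The miR-200 genes ranged from -0.21 (Mir200b) to 0.05 (Mir200c). The white cell Mir223 stood at -0.17.

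The genes nearest to each member in level were found by the smallest Euclidean distance in log2(CPM + 1) over the 2 libraries, which describes a like level in 2 samples and nothing more. They were Mir23a for Mir30e (distance 0.12), Mir379 for both Mir30a (0.07) and Mir30d (0.15), Mir208b for Mir30c-1 (0.02) and Mir1198 for Mir30c-2 (0.18). For Mir30b it was Mir449a (0.27), with 1079 and 566 counts, also lower in replicate 2.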

How the data were processed

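The deposited tables, 1 for each library, hold whole-number counts of reads for every miRNA gene, made by the authors on mm10 with GENCODE M4 per the deposited description files. Not given in the sources used here: trimming, aligner and counter. Columns carry no names. The first is the total of both others, and the second, which holds nearly all counts of known miRNA genes, was taken as sense. Lines that name no gene were left out of totals, among them reads matching several places (25.5% and 27.0% of reads).

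Identifiers were matched without version to GENCODE M21 (1894 of 1973); all 6 members matched. Ratios are log2 with 1 CPM added. Their intervals are 95% Clopper-Pearson on the counts with nothing added, and those of shares 95% Wilson. The script of the binomial test was tested on simulated data that vary by counting error alone, which says nothing about spread between pools. Sequences were matched by symbol to RefSeq tables (GRCm38.p6) and are shown for 4 of 6 members. The members and lists were chosen with earlier results of these data known. The named genes are the members, the listed families and markers, Mir384 and the nearest gene in level to each member. The adjacent pairs, the order along the transcript, the levels per hairpin base and the window of 500 to 5000 counts were added after seeing the data. Alternatives covered scaling, filters, fold limit, test, strand, copies, pseudocount and leaving out each replicate. Software was DESeq2 1.42.0 and edgeR 4.0.16 in R 4.3.3, with scipy 1.17.1, pandas 2.3.3 and numpy 2.4.6 in Python 3.11.15.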

Additional observations from a re-analysis of the deposited data

Results flagged for a closer look

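Signal stood in data outside the comparisons. Reads that matched several places, which no gene count holds, numbered 2946663 in replicate 1 and 3406967 in replicate 2. How many of them came from miR-30 genes was not tested.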

How the results depend on the processing

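Of 62 values under alternative settings, 53 kept their direction and stayed within the replicate spread or on their side of the threshold. With n = 2, either replicate always lies within the SD of the mean, so leaving out a replicate could not move a value. The ratios between the pools have no replicate spread. Mir30e, for example, counted as kept at -0.25 and at -0.09 with DESeq2 size factors. The number of members called between the pools, 0, became 4 with no fold limit and remained 0 under the other 7 settings run (scaling, count minimum, edgeR's exact test, both strands, copies summed). The family share of 2.44% became 1.63% with reads matching several places in the total and 2.97% without the most abundant gene, Mir143, both by construction; it was 2.29% to 2.59% without either replicate. With pseudocount 5, Mir30e over Mir30c-1 became 7.58 and Mir30a over Mir30c-2 became 7.60. The ratios between the pools reversed in sign for Mir30d (0.12 with TMM, 0.15 with DESeq2 size factors) and Mir30a (0.0011 and 0.029); none passed the 2-fold limit. Without either replicate, the difference of Mir30d over Mir30b was 4.69 to 5.64. No paired analysis was possible because both libraries belong to a single group. Leaving out a replicate gives no ratio between the pools. For adjacent pairs, a limit of 10 kb, added after seeing the data, left 109 pairs with a median of 3.10. Among the members, counting error is largest for Mir30c-2, at 130 and 146 counts.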
